A study of Mus musculus with 6 samples.

Results

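Retinoic acid synthesis and binding was examined in colonic stromal cells through 9 genes, chosen by symbol out of the 20327 symbols counted in each library. They are *Rbp4*, which encodes the carrier of retinol in blood, *Rdh10*, which encodes the dehydrogenase that turns retinol into retinal, *Aldh1a1*, *Aldh1a2* and *Aldh1a3*, whose products turn retinal into retinoic acid, *Crabp1* and *Crabp2*, which encode binding proteins of retinoic acid in the cytoplasm, *Rarb*, which encodes a retinoic acid receptor, and *Cyp26b1*, whose product breaks retinoic acid down. Tags were analysed for 8 of them, 5 had enough tags to be tested, and *Crabp1* was not analysed here. In IL-11+ fibroblasts *Rdh10* was higher, *Aldh1a1* and *Aldh1a3* were lower, and *Aldh1a2* and *Rbp4* did not pass the test, compared with IL-11- stromal cells of the same inflamed colons.

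Retinoic acid is made from vitamin A inside the cell, in a reversible step from retinol to retinal and an irreversible step from retinal to retinoic acid. It then enters the nucleus and binds the receptors RARα, RARβ and RARγ, which pair with RXR receptors on DNA, and enzymes of the CYP26 family limit its level. In the gut, retinoic acid from dendritic, epithelial and stromal cells is known for imprinting gut homing on lymphocytes and for its part in regulatory T cell and IgA responses.

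The cells came from *Il11-Egfp* reporter mice on the C57BL/6 strain, 9 to 15 weeks old, that drank 1.5% dextran sulfate sodium (DSS) for 5 days and then plain water, and whose colons were taken on day 7. Cells without CD45, CD31, EpCAM and Ter119 on their surface were sorted into EGFP-Positive (here IL-11+) and EGFP-Negative (here IL-11-) fractions (n = 3 libraries per group from 3 mice). The 5′ ends of polyA RNA were sequenced and counted as tags. The question was how stromal cells that switch on *Il11* in colitis differ from those that do not. The reporter is a bacterial artificial chromosome with *Egfp* placed in *Il11*, so EGFP stands for promoter activity of the transgene, both groups carry it, and no cells from untreated mice entered the comparison. Values per library are given in the order of replicates 1, 2 and 3 throughout. The IL-11- libraries held 1057170, 1078179 and 1169817 tags and the IL-11+ libraries 1046538, 1022851 and 1049048. At these depths 3 tags, taken as the floor, correspond to between 2.46 and 3.18 normalized CPM (CPM after TMM scaling of the libraries). Floors and intervals describe counting error alone, since PCR copies of a tag are not separate molecules. Spearman's rho across genes was 0.894 to 0.929 within a group and 0.766 to 0.82 across the groups.

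Markers were read first, to see which cells each fraction held. *Il11* had 28, 51 and 89 tags in the IL-11- libraries and 1357, 732 and 2658 tags in the IL-11+ libraries, although tags from the first exon of the transgene cannot be told apart from those of the gene itself. The 2 fractions thus differed in *Il11* in the direction of their labels, which does not give the purity of either fraction. The 7 fibroblast markers summed to 20674, 20448 and 23234 normalized CPM in the IL-11- libraries and to 40388, 32336 and 28951 in the IL-11+ libraries, with *Dcn* as the most abundant, and 1 of them, *Col3a1*, was called higher, while *Dcn* and *Thy1* were higher and *Lum* lower with an adjusted p under 0.05 but a fold change under 2. The call of *Col3a1* ended under scaling by library size only (log2 fold change 0.96) and without IL-11- replicate 1 (0.83), where the fold change was under 2. Fibroblast markers were thus abundant in both fractions, whereas smooth muscle, interstitial cell and glial markers stood higher in the IL-11- fraction and pericyte markers were mixed. The 6 smooth muscle markers, led by *Myh11*, summed to 2169, 2674 and 3396 normalized CPM in the IL-11- libraries and to 81.6, 132 and 293 in the IL-11+ libraries, and 6 of 6 (*Myh11*, *Des*, *Acta2*, *Tagln*, *Cnn1* and *Actg2*) were lower in IL-11+ fibroblasts, of which *Cnn1* passed the filter through the IL-11- libraries alone. The 6 pericyte markers, led by *Rgs5*, summed to 2628, 2228 and 2023 against 1068, 894 and 793. Of these 6, *Rgs5*, *Cspg4* and *Notch3* were called lower, *Notch3* after passing the filter through the IL-11- libraries alone, and *Pdgfrb* was not called. *Abcc9* and *Kcnj8* instead stood higher in IL-11+ fibroblasts (log2 fold changes 0.66 and 0.71, adjusted p = 0.0167 and 0.0394), with fold changes under 2, so the lower sum rests mainly on *Rgs5*. The 3 markers of interstitial cells of Cajal, led by *Ano1*, summed to 271, 168 and 258 against 21.2, 20.3 and 50.5, and 3 of 3 were lower, although *Kit* passed the filter through the IL-11- libraries alone and *Etv1* fell just under the fold threshold without IL-11- replicate 1 (log2 fold change -0.93). For enteric glia, led by *Gfap*, the sums were 25.8, 33.0 and 28.7 against 1.06, 0 and 0.954, and *Gfap*, the only one of the 3 markers tested, was lower but passed the filter through the IL-11- libraries alone, while *Sox10* and *S100b* were under the filter and at 0 tags in the IL-11+ libraries. Mesothelial markers, led by *Wt1*, summed to 15.3, 6.60 and 23.8 against 1.06, 0 and 1.91, with none tested. Cells that the sort was meant to remove left few tags. *Epcam* had at most 1 tag and *Ptprc*, which encodes CD45, at most 7 in any library, and *Pecam1*, which encodes CD31, had 1 tag in all 6 libraries together. The summed epithelial markers (led by *Lgr5*) lay between 1.88 and 14.8 and the summed immune markers (led by *Zbtb46*) between 11.5 and 20.7 normalized CPM. Adipocyte markers had tags only in IL-11- replicate 1, with *Adipoq* at 2 tags, and *Cdh1*, *Cdh5*, *Flt4*, *Plin1* and *Lep* were not analysed here. Among endothelial markers, which summed to 45.8, 27.3 and 45.2 against 20.1, 13.2 and 12.4, *Tek* was lower in IL-11+ fibroblasts (log2 fold change -1.59, adjusted p = 0.0085), a call that ended without IL-11+ replicate 2 (log2 fold change -1.39, adjusted p = 0.0511; 0.000368 to 0.0529 over the alternatives), while without IL-11+ replicate 1 the log2 fold change was -2.29. In sorted bulk samples, fewer cells of a type and less RNA per cell cannot be told apart, and this holds for each retinoid gene below.

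**Figure D1:**
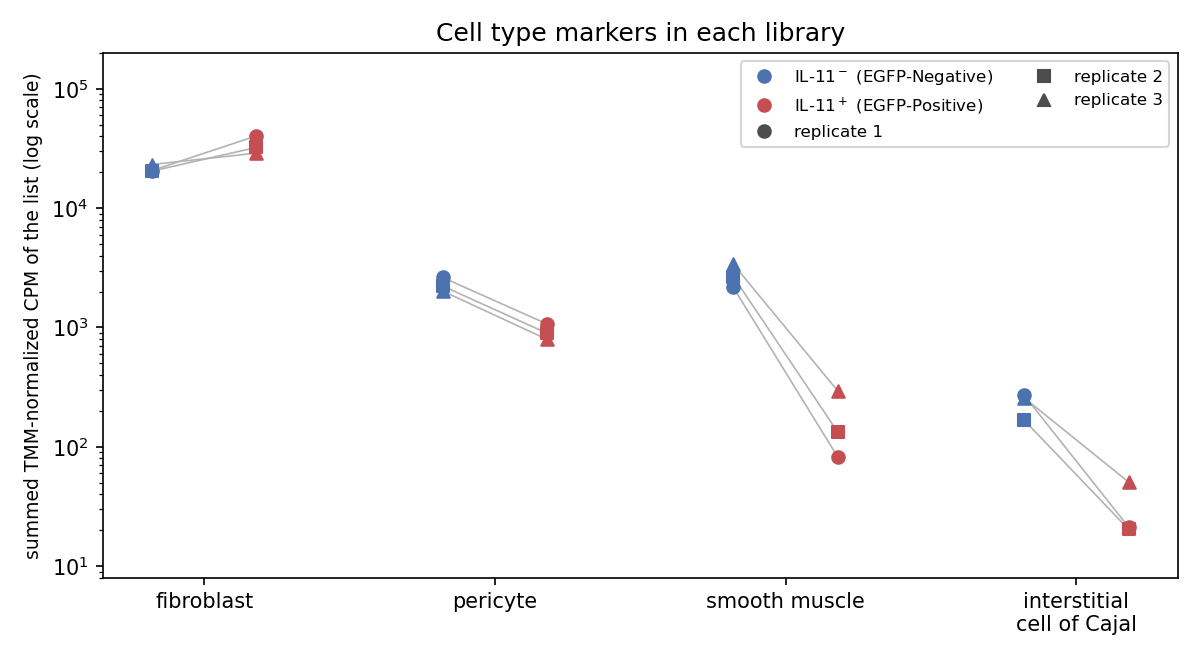
Summed TMM-normalized CPM (log scale) of the marker genes of 4 stromal cell types, with 1 point per library and a grey line between libraries with the same replicate number (blue, IL-11-; red, IL-11+). Smooth muscle markers lie between 2169 and 3396 in the IL-11- libraries and between 81.6 and 293 in the IL-11+ libraries, while fibroblast markers reach at least 20448 in every library.

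The 9334 genes that reached 10 tags in 3 or more libraries were compared by the quasi-likelihood test of edgeR, with p-values adjusted after Benjamini and Hochberg. A gene counted as called if its fold change exceeded 2 with an adjusted p under 0.05. Of the 5 tested retinoic acid genes, 1 was called higher in IL-11+ fibroblasts, where 3.44% of all tested genes were, and 2 were called lower, where 6.37% of all tested genes were. The adjusted p alone was under 0.05 for 3 of the 5, against 15.5% of all tested genes, and the libraries of both groups stayed apart for 3 of the 5, against 31.2%. The set and the lists below were chosen with earlier results of these data known, so such counts describe them and do not test them. Each of the 5 had at least 11 tags in every library, so none entered the test through 1 group alone. The median log2 fold change of the 5 was -0.56, beside -0.01 over all tested genes. The number of genes lower among all tested was 595, and it was 341 without IL-11- replicate 1 and 355 without IL-11- replicate 2, where the filter was applied again, but 483 and 508 on the same 9334 genes. The counts of 1 higher and 2 lower retinoic acid genes were the same in each alternative run.

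Retinol reaches tissues bound to RBP4. *Rbp4* (chromosome 19, 38116629 to 38125281 in GRCm38) had 20, 42 and 23 tags in the IL-11- libraries and 15, 15 and 22 tags in the IL-11+ libraries. The groups overlapped, and the highest value came from IL-11- replicate 2. Its level was 25.9 ± 11.9 normalized CPM in IL-11- cells and 17.4 ± 3.14 in IL-11+ fibroblasts (SD, n = 3; log2 fold change -0.56, SE 0.342, adjusted p = 0.326). Without IL-11- replicate 2 the log2 fold change of *Rbp4* was -0.14.

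*Cd36*, which encodes a scavenger receptor for fatty acids that can also take up carotenoids, had 10, 15 and 11 tags in the IL-11- libraries and 0 in each IL-11+ library. It was at least 3.60-fold lower in IL-11+ fibroblasts, taking 3 tags per library as the floor, and it passed the filter only through the IL-11- libraries (adjusted p = 0.000263). *Lrp1*, which encodes an endocytic receptor that takes up lipoprotein remnants, had between 923 and 1112 tags in the IL-11- libraries and between 1261 and 1386 in the IL-11+ libraries. Its groups did not overlap, but its fold change of 1.44 stayed under the threshold (log2 fold change 0.53, adjusted p = 0.0412). The list of uptake, transport and storage genes held 13 genes, of which 3 were tested. By edgeR and by DESeq2 0 of them were called higher (3.44% of all tested genes by edgeR) and 1, *Cd36*, lower (6.37%). Of the 2 genes left without *Cd36*, 0 were lower, against 4.4% of the tested genes that did not pass the filter through 1 group alone. An unadjusted p under 0.05 was found for 2 of the 3, as for 26.7% of all tested genes. The median log2 fold change of the list was -0.56, or -0.02 over the 2 genes left without *Cd36*, beside -0.01 over all tested genes. *Stra6*, which encodes the membrane receptor for RBP4, had at most 1 tag in any library, and *Rbp2*, *Rbp3* and *Lrat* were not analysed here.

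The first oxidation, from retinol to retinal, was the step where a gene of the set rose. *Rdh10* (chromosome 1, 16105774 to 16133734), which encodes the main retinol dehydrogenase of embryonic retinoic acid synthesis, had 38, 68 and 68 tags in the IL-11- libraries and 113, 155 and 114 tags in the IL-11+ libraries. The lowest IL-11+ library lay above the highest IL-11- library, and each IL-11+ library also exceeded the IL-11- library with the same number. *Rdh10* rose from 52.1 ± 14.3 to 129 ± 25.5 normalized CPM (SD, n = 3; log2 fold change 1.30, SE 0.216, adjusted p = 3e-04). Within replicates the log2 ratios of *Rdh10* were 1.72, 1.30 and 0.96, so the difference was smallest in replicate 3. Across the alternatives the log2 fold change of *Rdh10* ran from 1.08 to 1.48.

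*Adh1* (chromosome 3, 138260991 to 138290698), which encodes a cytosolic alcohol dehydrogenase that also oxidizes retinol and clears its excess, had 296, 295 and 361 tags in the IL-11- libraries and 66, 73 and 88 tags in the IL-11+ libraries. The groups were far apart, and within each the libraries were nearly equal once scaled. *Adh1* fell from 286 ± 9.61 to 76.0 ± 7.17 normalized CPM (SD, n = 3; log2 fold change -1.91, SE 0.168, adjusted p = 2.81e-07). *Rdh10* and *Adh1*, 2 genes whose products act on the same substrate, thus moved in opposite directions. *Dhrs3* encodes the retinal reductase that works with RDH10 in the reverse reaction, and it had 36, 27 and 28 tags against 15, 24 and 14. Its log2 fold change was -0.62 (SE 0.313, adjusted p = 0.217), and the groups overlapped. *Dhrs4*, a peroxisomal retinal reductase gene, had a fitted log2 fold change of 0.65 (SE 0.270, adjusted p = 0.121). Of the 18 genes listed for oxidation of retinol and reduction of retinal, 8 were tested, 1 was called higher (3.44% of all tested genes) and 1 lower (6.37%), and the median log2 fold change was 0.06, beside -0.01 over all tested genes. *Rdh1*, with 5 to 20 tags per library, shares 73.7% of the 50-nt windows near its 5′ end with *Rdh7* and *Rdh16f1*, so its tags cannot be assigned with certainty.

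**Figure D2:**
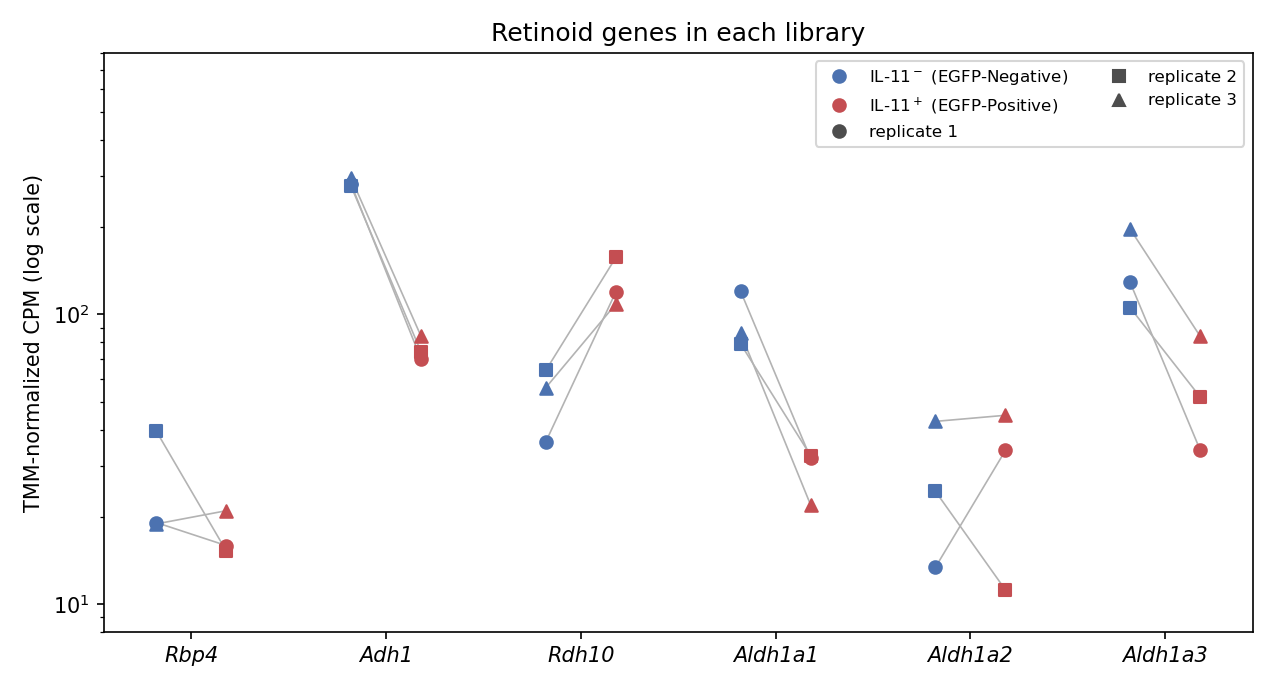
TMM-normalized CPM (log scale) of 5 genes of the retinoic acid set and *Adh1* in each library, with a grey line between libraries with the same replicate number (blue, IL-11-; red, IL-11+). *Rdh10* is higher in each of the 3 IL-11+ libraries, *Adh1*, *Aldh1a1* and *Aldh1a3* are lower in each, and *Rbp4* and *Aldh1a2* overlap.

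The second oxidation, from retinal to retinoic acid, is carried out by the retinal dehydrogenases RALDH1, RALDH2 and RALDH3, products of *Aldh1a1*, *Aldh1a2* and *Aldh1a3*. *Aldh1a1* (chromosome 19, 20492715 to 20643465, 16 exons) had 126, 84 and 105 tags in the IL-11- libraries and 30, 32 and 23 tags in the IL-11+ libraries. All 3 IL-11+ libraries were below all 3 IL-11- libraries. *Aldh1a1* fell from 95.2 ± 22.0 to 28.7 ± 5.90 normalized CPM (SD, n = 3; log2 fold change -1.73, SE 0.233, adjusted p = 3.38e-05). Within replicates the log2 ratios of *Aldh1a1* were -1.92, -1.28 and -1.97, so each IL-11+ library was well below the IL-11- library with the same number. Some 4.28% of the windows near its 5′ end also occur in *Aldh1a7*, which had at most 1 tag in any library.

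*Aldh1a3* (chromosome 7, 66390890 to 66427517, 13 exons) had 135, 112 and 240 tags in the IL-11- libraries and 32, 51 and 88 tags in the IL-11+ libraries. The groups did not overlap here either, and replicate 3 was the highest library of both groups. *Aldh1a3* fell from 144 ± 47.6 to 56.5 ± 25.3 normalized CPM (SD, n = 3; log2 fold change -1.34, SE 0.271, adjusted p = 0.00173). Its adjusted p was at most 0.0161 over the alternatives, with log2 fold changes between -1.75 and -1.04. The summed smooth muscle markers were also highest in replicate 3 of both groups and lower in IL-11+ fibroblasts. Lower there as well were 3 of 3 interstitial cell markers, 3 of 6 pericyte markers and the 1 tested glial marker. Among these, *Kit*, *Notch3* and *Gfap* passed the filter through the IL-11- libraries alone. The pericyte markers *Abcc9* and *Kcnj8* instead stood higher in IL-11+ fibroblasts (log2 fold changes 0.66 and 0.71). The part of smooth muscle, interstitial, pericyte and glial cells in the lower *Aldh1a1*, *Aldh1a3* and *Adh1* values was not tested.

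*Aldh1a2* (chromosome 9, 71215789 to 71296243, 14 exons), the main retinal dehydrogenase gene of the embryo, had 14, 26 and 52 tags in the IL-11- libraries and 32, 11 and 47 tags in the IL-11+ libraries. The libraries of both groups covered the same range, and replicate 3 was the highest in each. Its level was 26.9 ± 14.8 normalized CPM in IL-11- cells and 30.0 ± 17.2 in IL-11+ fibroblasts (SD, n = 3; log2 fold change 0.14, SE 0.411, adjusted p = 0.872). Within replicates the log2 ratios were 1.34, -1.13 and 0.07, so the direction differed between replicates. Without IL-11- replicate 1 the log2 fold change of *Aldh1a2* was -0.19 and without IL-11+ replicate 3 it was -0.28, and the adjusted p lay between 0.39 and 0.961 over the alternatives. Whether the fold change of *Aldh1a2* differs from those of *Aldh1a1* and *Aldh1a3* was not tested.

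The tags of *Aldh1a1*, *Aldh1a2* and *Aldh1a3* together summed to 262.6, 209.2 and 326.0 normalized CPM in the IL-11- libraries and to 99.6, 95.4 and 150.7 in the IL-11+ libraries. Each IL-11+ library thus held fewer retinal dehydrogenase tags than any IL-11- library, with means of 266 ± 58.5 and 115 ± 30.8 (SD, n = 3). *Aldh1a2* supplied 5.09% of these tags in IL-11- replicate 1 (14 of 275, 95% Clopper-Pearson interval 2.81 to 8.39%), 11.7% in replicate 2 (26 of 222, 7.79 to 16.7%) and 13.1% in replicate 3 (52 of 397, 9.94 to 16.8%). In the IL-11+ libraries its share was 34.0% in replicate 1 (32 of 94, 24.6 to 44.5%), 11.7% in replicate 2 (11 of 94, 5.99 to 20.0%) and 29.7% in replicate 3 (47 of 158, 22.7 to 37.5%). The *Aldh1a2* share was therefore above each IL-11- value in IL-11+ replicates 1 and 3 but not in replicate 2. *Aldh1a3* supplied between 49.1 and 60.5% of the pool in the IL-11- libraries and between 34.0 and 55.7% in the IL-11+ libraries. Of the 5 genes listed for this step, 3 were tested and 2 were lower, beside 6.37% of all tested genes, with a median log2 fold change of -1.34, beside -0.01, and *Aldh8a1* was not analysed here.

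Inside the cell, CRABP1, CRABP2 and FABP5 carry retinoic acid, CRABP2 toward RAR and FABP5 toward the receptor PPARδ. *Crabp2* had 1, 1 and 0 tags in the IL-11- libraries and 0, 1 and 1 in the IL-11+ libraries, which is under the floor in both groups. No difference in *Crabp2* was detectable at this depth. *Fabp5* had 24, 16 and 11 tags in the IL-11- libraries and 2, 0 and 2 in the IL-11+ libraries, so that all IL-11+ libraries were under the floor. Taking 3 tags per library as the floor, *Fabp5* was at least 5.17-fold lower in IL-11+ fibroblasts. Its summed tags, 51 against 4, give a ratio of 11.4 of IL-11- over IL-11+ (95% exact counting interval 4.19 to 43.5). It was called lower (adjusted p = 0.00108). *Fabp5* passed the filter only through the IL-11- libraries, and 29.8% of the windows near its 5′ end also occur in *Fabp5l2* and in predicted genes named Gm, so some tags may belong to these. It was the only tested gene of the 3 listed for binding.

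The receptors were measured at low levels. *Rarb* (chromosome 14, 16430839 to 16819156), a receptor gene that retinoic acid itself induces, had 9, 4 and 1 tags in the IL-11- libraries and 2, 0 and 3 in the IL-11+ libraries. The groups overlapped, and the highest value rested on IL-11- replicate 1. Summed over libraries, *Rarb* stood at 4.21 normalized CPM in IL-11- cells (95% exact Poisson interval 2.30 to 7.06) and at 1.68 in IL-11+ fibroblasts (0.545 to 3.92). The ratio of the summed tags of *Rarb*, IL-11- over IL-11+, was 2.51 (95% exact counting interval 0.853 to 8.89). This interval includes 1, so a difference in *Rarb* was not detectable at this depth. With no filter other than 1 tag in any library its log2 fold change was -1.25 (SE 0.876, adjusted p = 0.532, and 0.459 with at least 10 tags in total). The other RAR genes had more tags. *Rarg* had 31, 33 and 25 tags against 33, 46 and 35, and its normalized values were higher in all 3 IL-11+ libraries, with a fitted log2 fold change of 0.51 (SE 0.263, adjusted p = 0.23). *Rara* had 20, 13 and 24 tags against 21, 7 and 10, a fitted log2 fold change of -0.41 (SE 0.408, adjusted p = 0.577). *Rxra* and *Rxrb* had log2 fold changes of -0.11 and -0.42, and *Rxrg* had tags in 1 library. Of the 6 receptor genes, 4 were tested. By edgeR and by DESeq2 0 of the 4 were called, beside 3.44% of all tested genes called higher and 6.37% called lower by edgeR. An unadjusted p under 0.05 was found for 0 of the 4 (26.7% of all tested genes). Their median log2 fold change was -0.26, beside -0.01 over all tested genes.

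Breakdown of retinoic acid left few tags. *Cyp26b1* (chromosome 6, 84571414 to 84593908) had 2, 5 and 3 tags in the IL-11- libraries and 2, 1 and 1 in the IL-11+ libraries. Both groups lay near the floor, at 3.01 normalized CPM in IL-11- cells (95% exact Poisson interval 1.44 to 5.53) and 1.34 in IL-11+ fibroblasts (0.366 to 3.44). A difference was not detectable at this depth (log2 fold change -1.06, SE 1.01, adjusted p = 0.658 with no filter other than 1 tag in any library, and 0.533 with at least 10 tags in total). *Cyp26a1* and *Cyp26c1* were not analysed here.

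Receptors of the RAR family bind DNA with RXR on direct repeats of a short half-site, and the promoters of the pathway genes were searched for such repeats. RefSeq promoters of build GRCm38.p6, from 250 bases before to 50 bases after the start, were read on both strands for 2 half-sites in the same direction, each AGGTCA or AGTTCA or GGGTCA or GGTTCA, with 1, 2 or 5 bases between them. Of the 32851 promoters, 0.222% held a repeat with 1 base between, 0.268% a repeat with 2 and 0.0974% a repeat with 5. Among the 9 genes of the set, 6 had a promoter in the table (8 promoters), and 1 of these promoters, that of *Rarb*, held a repeat. Among all 75 pathway genes, 60 had a promoter (87 promoters), and *Rarb*, *Cyp26a1* and *Bco1* held 1 repeat each. The *Rarb* repeat (chr14:16575513-16575529, minus strand) lies 53 to 37 bases before the start, and the *Cyp26a1* repeat (chr19:37697776-37697792) is on the strand opposite to the gene, as is that of *Bco1* (chr8:117095809-117095821). They are shown because *Rarb* and *Cyp26a1* are textbook targets of retinoic acid, while the promoters of *Aldh1a1*, *Aldh1a2*, *Rbp4*, *Crabp1* and *Cyp26b1* held no such letters. Capitals mark the half-sites, and a match describes letters, not binding.
Rarb: ggaagGGTTCAccgaaAGTTCActcgc
Cyp26a1: aaattAGTTCAcccaaAGTTCAtcttt
Bco1: gtgttAGGTCAaAGGTCAgttcc

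Genes known to respond to retinoic acid did not move in 1 direction. Of the 19 listed, 8 were tested. By edgeR and by DESeq2 0 were called higher and 1, *Rarres2*, was called lower, beside 3.44 and 6.37% of all tested genes by edgeR. An unadjusted p under 0.05 was found for 3 (26.7% of all tested genes), and the median log2 fold change was 0.01, beside -0.01. *Rarres2* (chromosome 6, 48569696 to 48572789), which encodes the chemoattractant chemerin, had 1052, 1088 and 869 tags in the IL-11- libraries and 330, 404 and 409 tags in the IL-11+ libraries. The groups were well apart. *Rarres2* fell from 914 ± 174 to 383 ± 30.8 normalized CPM (SD, n = 3; log2 fold change -1.25, SE 0.179, adjusted p = 6.34e-05). *Tgm2*, which encodes transglutaminase 2, had 224, 328 and 280 tags against 352, 457 and 547. All 3 IL-11+ libraries of *Tgm2* were above the IL-11- libraries, but its fold change of 1.81 stayed under the threshold (log2 fold change 0.85, SE 0.185, adjusted p = 0.00318). *Meis1*, which encodes a homeodomain factor, had 87, 71 and 100 tags against 31, 59 and 28, with a fitted log2 fold change of -0.96 (SE 0.253, adjusted p = 0.013), also under the fold threshold. Groups without overlap, which 31.2% of all tested genes had, were seen for 5 of the 8, namely *Rarres2*, *Tgm2*, *Meis1*, *Hic1* (adjusted p = 0.436) and *Nrip1* (0.355), and *Tgm2* and *Hic1* were the ones with higher values in IL-11+ fibroblasts. *Stra6*, *Crabp2*, *Rarb* and *Cyp26b1* of the same list were under the filter.

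RXR also pairs with other nuclear receptors, of which 9 were listed and 7 tested. *Nr1h4*, which encodes the bile acid receptor FXR, was called higher, with 11, 4 and 6 tags in the IL-11- libraries and 32, 28 and 7 in the IL-11+ libraries (log2 fold change 1.83, SE 0.524, adjusted p = 0.0222). Its groups overlapped, since IL-11+ replicate 3 stood below IL-11- replicate 1. The call of *Nr1h4* ended without IL-11- replicate 2 (log2 fold change 1.56, adjusted p = 0.121) and without IL-11- replicate 3 (1.64, 0.0848). On the same 9334 genes it also ended without IL-11+ replicate 1 (1.45, 0.125) and without IL-11+ replicate 2 (1.64, 0.0962), and over all alternatives the adjusted p ran from 0.000155 to 0.125. *Nr1h4* was thus 1 of 7, beside 3.44% of all tested genes called higher, and the other tested partners were not called by edgeR or by DESeq2. *Thra* and *Thrb*, which encode thyroid hormone receptors, had lower fitted values in IL-11+ fibroblasts (log2 fold changes -0.52 and -0.72, adjusted p = 0.121 and 0.175). *Nr1h3*, which encodes the oxysterol receptor LXRα, had 13, 17 and 18 tags against 7, 9 and 12 (log2 fold change -0.61, adjusted p = 0.324). The groups of *Thrb* and *Nr1h3* did not overlap, which makes 2 of 7 beside 31.2% of all tested genes. An unadjusted p under 0.05 was found for 3 of the 7 (*Nr1h4*, *Thra* and *Thrb*), beside 26.7% of all tested genes, and the median log2 fold change of the list was -0.18.

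Over the whole pathway, 75 genes were listed, 64 were analysed and 39 were tested. Of these, 2 were called higher (*Rdh10* and *Nr1h4*), against 3.44% of all tested genes, and 6 lower (*Aldh1a1*, *Aldh1a3*, *Adh1*, *Cd36*, *Fabp5* and *Rarres2*), against 6.37%. *Cd36* and *Fabp5* passed the filter through the IL-11- libraries alone. Without such genes 4 of 37 pathway genes were lower, against 4.4% of 9000 tested genes. The adjusted p alone was under 0.05 for 11 of the 39 (15.5% of all tested genes), and 15 had groups without overlap, which is 38.5% and near the 31.2% of all tested genes. The median log2 fold change of the 39 pathway genes was -0.18, and -0.14 over the 37, beside -0.01 over all tested genes.

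**Figure D3:**
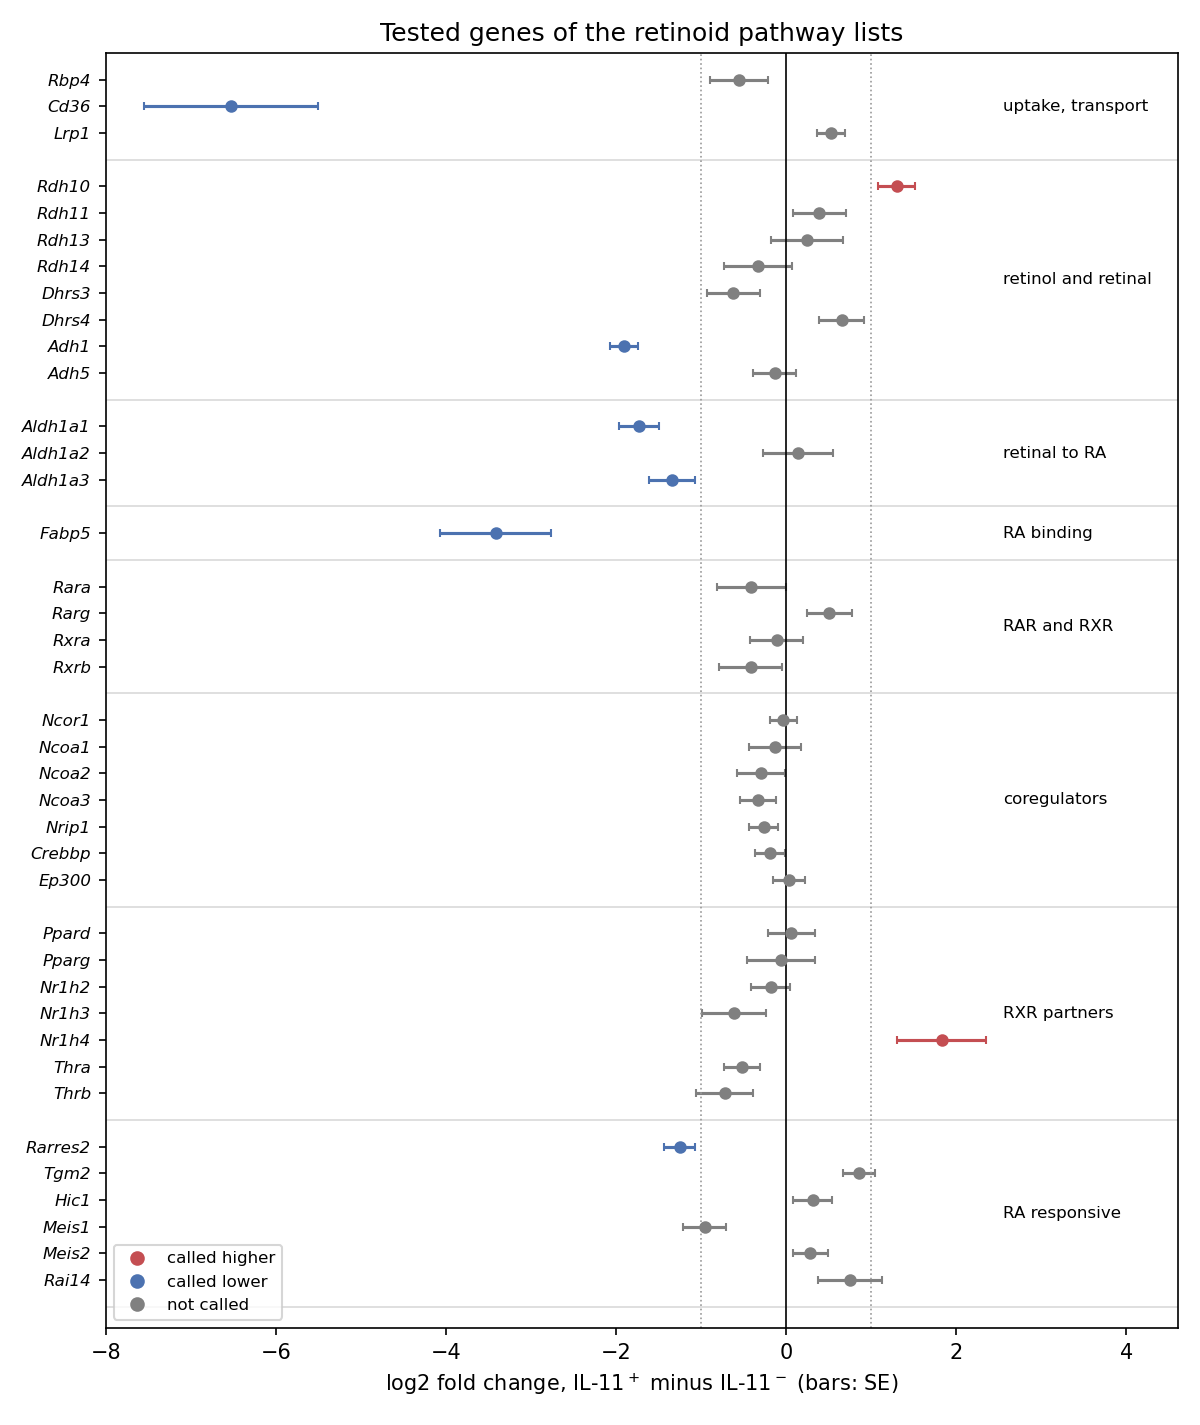
Log2 fold changes, IL-11+ minus IL-11-, with SE as bars, for the 39 tested pathway genes in the order of their roles (red, called higher; blue, called lower; grey, not called). Dotted lines mark the fold change of 2 in either direction, and the fitted values of *Cd36* and *Fabp5* rest on IL-11+ libraries with 0 to 2 tags.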

How the data were processed

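RNA of 6 libraries, 3 EGFP-Negative and 3 EGFP-Positive, was read by 5′Tag-seq. The authors trimmed reads with cutadapt 1.18, aligned them to mm10 RefSeq RNA in a single orientation with Bowtie2 2.2.5, and deposited raw tag counts per gene symbol. How tags with several matches were counted is not given in the sources used here. Symbols were matched exactly, and 8 of 9 were found. In R 4.3.3, genes with 10 or more tags in 3 or more libraries were fitted with edgeR 4.0.16 (TMM, glmQLFit, glmQLFTest, Benjamini-Hochberg adjustment over 9334 genes). The filter on 10 tags follows the published methods, whose wording was read as keeping such genes. Groups and replicate numbers come from the labels. Same-numbered libraries deviated together (r = 0.23, 0.185 and 0.264 across 5063 genes), and the methods name 3 mice. The numbers were therefore taken to pair the libraries, but the labels do not state this, and differently numbered libraries were not set beside these values. The blocked fit changed no call of a named gene and is an alternative.

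Alternatives were RLE, library size only, iterative TMM after the TCC scheme (3 iterations), DESeq2 1.42.0, filters of 1 tag in any library or 10 tags in total, the replicate block, the adjusted p alone, and leaving out each library, with the filter applied again or, added after seeing the data, on the same 9334 genes. Named were all genes of the set, list genes that were called, the most abundant tested gene of a list without calls, some list genes whose groups did not overlap, *Il11*, and the leading and absent markers. Other named list genes (*Dhrs3*, *Dhrs4*, *Rara*, *Rxra*, *Rxrb*, *Rxrg*, *Rdh1*, *Stra6*, *Bco1*, *Aldh1a7*, *Kcnj8*, *Pdgfrb*, *Thra*, *Sox10*, *S100b*, *Epcam*, *Ptprc* and *Pecam1*) were chosen after their values were seen. The set and the lists were chosen with earlier results of these data known. Some genes first listed are not reported here, and counts, sums and medians of the lists leave them out. Positions are from GENCODE vM21 (GRCm38), and 50-nt windows of the first 300 nt of transcripts were compared to find genes that can share tags.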

Additional observations from a re-analysis of the deposited data

How the results depend on the processing

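*Aldh1a1*, *Aldh1a3* and *Rdh10* kept their direction and their calls in 20 of 20 alternatives, as did *Adh1* and *Rarres2*. *Rbp4* stayed negative and uncalled in 20 of 20. *Aldh1a2* was never called, and its log2 fold change ran from -0.28 to 0.66 when each library was left out in turn, negative without EGFP-Negative replicate 1 or EGFP-Positive replicate 3. The cause was not tested. With the adjusted p alone 638 genes were higher, since smaller fold changes then count. Leaving out each library gave 341 to 580 lower genes, the lowest numbers where fewer genes passed the filter. The replicate block gave 337 higher and 648 lower genes and changed no call among the named genes. Scaling moved the median of all genes at most to -0.095 (library size only). Depth limits *Crabp2*, *Rarb* and *Cyp26b1*, which had at most 9 tags in any library.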

Other observations

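Coregulators that RAR and RXR recruit were measured through 7 listed genes, and 7 of 7 were tested. None was called by edgeR or by DESeq2, beside 3.44% of all tested genes called higher and 6.37% called lower by edgeR. An unadjusted p under 0.05 was found for 0 of the 7 (26.7% of all tested genes). The median log2 fold change was -0.20, beside -0.01 over all tested genes. *Ncor1*, which encodes a corepressor that unliganded RAR binds and was the most abundant of the 7, had 191, 214 and 228 tags against 180, 186 and 187 and a log2 fold change of -0.03 (SE 0.157). *Nrip1*, a corepressor gene that retinoic acid induces, had 98, 107 and 118 tags against 73, 83 and 85, with groups that did not overlap and a fitted log2 fold change of -0.26 (SE 0.169, adjusted p = 0.355).

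Of the 25 listed genes under the filter, 3 had normalized values without overlap between the groups, close to the floor. The share among all genes under the filter was not computed. *Scarb1*, which encodes a lipoprotein receptor that takes up carotenoids, had 5, 6 and 7 tags in the IL-11- libraries and 9, 7 and 7 in the IL-11+ libraries, so its tags tie at 7 and only the normalized values are apart. *Vdr*, the vitamin D receptor gene, had 4, 6 and 9 tags against 8, 10 and 8. Its tags overlap, and its normalized values are apart by little, with 7.39 CPM as the highest in IL-11- cells and 7.63 as the lowest in IL-11+ fibroblasts. *Adh7*, a retinol dehydrogenase gene of upper gut epithelium, had 2, 2 and 3 tags against 1, 0 and 0. None of these 3 genes was tested. *Bco1*, which encodes the enzyme that cleaves β-carotene into retinal, had 11, 8 and 4 tags against 16, 8 and 4, and its groups overlapped.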
